A study of Homo sapiens with 12 samples.

Results

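The 10 genes described here encode enzymes that consume aspartate, or act beside those that do, in nucleotide synthesis and the urea cycle: CAD, DHODH, UMPS, PPAT, GART, PAICS, ADSL, ADSS, ASS1 and ASL. They were taken by gene symbol from RNA-seq tables of 58721 genes, and all 10 were found there. The libraries came from Pa-Tu-8902 and MIA PaCa-2 (Tu8902 and MiaPaCa2 in the deposited labels), human pancreatic cancer cell lines with an iDox-shGOT1 construct, which makes a hairpin RNA against GOT1 when doxycycline (dox) is given. Each line gave 3 libraries of untreated cells and 3 of cells grown in dox for 5 days, or 12 libraries in all. The labels give dox as 1 µM/mL and the methods of the study as 1 µg/mL. Untreated cells carried the same construct, uninduced, and no library of cells without it was given dox, so an effect of dox itself and an effect of GOT1 loss cannot be told apart. The sources used here do not state which hairpin sequence the cells carried, or that replicates were separate cultures, so a p-value covers the spread between these libraries, which may be technical.

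Aspartate gives carbon and nitrogen to pyrimidines and nitrogen to purines and arginine, and cytosolic GOT1 exchanges its amino group with that of glutamate. CAD joins carbamoyl phosphate to aspartate and closes the product to dihydroorotate. DHODH oxidizes dihydroorotate in mitochondria, and UMPS completes UMP. In purine synthesis PPAT commits phosphoribosyl pyrophosphate to the route, GART catalyses separate steps with its joined domains, and PAICS adds aspartate to the growing purine. ADSL then releases fumarate, ADSS adds aspartate to IMP on the way to AMP, and ADSL acts again. In the urea cycle ASS1 joins citrulline and aspartate into argininosuccinate, which ASL splits into arginine and fumarate. Of the 10 enzymes, CAD, PAICS, ADSS and ASS1 take aspartate as a substrate, and the others are steps of the same routes.

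On GRCh38, CAD lies at chr2:27217369-27243943 on the plus strand, DHODH at chr16:72008588-72027664 on the plus strand and UMPS at chr3:124730433-124749273 on the plus strand. The purine genes are PPAT (chr4:56393362-56435615, minus strand), GART (chr21:33503931-33543491, minus strand), PAICS (chr4:56435741-56464578, plus strand), ADSL (chr22:40346461-40390463, plus strand) and ADSS (chr1:244408494-244451909, minus strand), which the newer annotation names ADSS2. ASS1 lies at chr9:130444961-130501274 and ASL at chr7:66075800-66094697, both on the plus strand. PPAT and PAICS are neighbours that run in opposite directions, with 126 bases between their annotated starts, and they are shown because PAICS passed the dox test in one line and PPAT in the other. A window over the region between them is printed in the PAICS direction, from chr4:56435502-56435801 on the plus strand of GRCh38.p14 (RefSeq). It also holds the first bases of both genes. A window of ASS1, the member with the largest difference between the lines, follows from chr9:130444711-130445010 on the plus strand. Capitals mark CACGTG, the E-box that MYC and related factors can bind, which reads the same on both strands. PAICS and ASS1 have other windows that lack CACGTG, and the printed ones were taken because they hold it.

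PAICS: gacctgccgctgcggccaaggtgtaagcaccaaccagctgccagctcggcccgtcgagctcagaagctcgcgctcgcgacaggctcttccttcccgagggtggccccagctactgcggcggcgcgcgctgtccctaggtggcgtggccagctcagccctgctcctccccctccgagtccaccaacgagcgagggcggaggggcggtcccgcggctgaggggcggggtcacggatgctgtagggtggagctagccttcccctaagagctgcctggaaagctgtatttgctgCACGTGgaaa

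ASS1: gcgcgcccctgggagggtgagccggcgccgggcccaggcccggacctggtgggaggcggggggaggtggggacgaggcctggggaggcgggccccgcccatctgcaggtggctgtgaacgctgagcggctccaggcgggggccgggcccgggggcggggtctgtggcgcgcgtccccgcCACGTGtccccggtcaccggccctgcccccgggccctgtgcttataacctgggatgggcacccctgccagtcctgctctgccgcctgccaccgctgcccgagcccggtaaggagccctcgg

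RefSeq promoter windows, which run from 250 bases before a start to 50 bases after it, were given for 9 of the 10 members (15 windows), and ADSL had none. CACGTG was found in windows of 4 members, PPAT, PAICS, ASS1 and DHODH. Counted by window, this was 4 of the 15, against 7.23% of all 34943 promoter windows. The PPAT and PAICS windows overlap and hold the same copy, at chr4:56435792-56435797. A match in letters is a description and not a binding site.

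Total expected counts were 26226537 to 43406137 per library, and the members were all far above the count minimum for testing. GOT1, the target of the hairpin, was at 3797 to 4364 normalized counts in untreated and 141 to 183 in dox-treated Pa-Tu-8902, and the MIA PaCa-2 libraries held 2166 to 2446 and 72.3 to 99.4. The line markers MTAP, CDH1 and VIM separated all 12 libraries by their labels. In MIA PaCa-2 MTAP had 1 to 5 counts, CDH1 at most 4 and VIM at least 133835. In Pa-Tu-8902 MTAP and CDH1 had at least 5691 and 4899 counts and VIM at most 378. The mesenchymal marker CDH2 went the other way from VIM and ZEB1. It was at 56.8 to 80.5 normalized counts in untreated Pa-Tu-8902 and 0 to 0.968 in untreated MIA PaCa-2. The epithelial keratins KRT8, KRT18 and KRT19 were higher in untreated Pa-Tu-8902 but present in both lines (KRT8 at means of 150394 and 58157 normalized counts). Of 6 markers of other cell types, COL3A1, DCN and PTPRC had at most 3 counts in any library, and the endothelial gene PECAM1 at most 14. The summed level of the 6 was 3.79 to 6.68 TPM in untreated and 17.7 to 21.5 TPM in dox-treated Pa-Tu-8902, and 192 to 248 and 340 to 398 TPM in MIA PaCa-2. COL1A1 carried it in Pa-Tu-8902 and COL1A2 in MIA PaCa-2, each the only one of the 2 list genes tested there to rise past both limits (log2 fold changes of 1.87 and 0.70), and the part of this in the results was not tested. Untreated MIA PaCa-2 replicate 2 stood apart from its group (chi-square per degree of freedom over genes of 25.5 and 27.3 against the other two, which were at 6.4 from each other). By the same measure untreated Pa-Tu-8902 replicate 3 was at 8.93 and 10.8 from the other two, which were at 2.25 from each other. Dox-treated Pa-Tu-8902 replicates 1 and 2 were at 20.6 from each other, and at 7.21 and 8.09 from replicate 3. Results that rest on untreated MIA PaCa-2 replicate 2 or untreated Pa-Tu-8902 replicate 3 are also given without them.

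With dox, most of these enzymes changed little in Pa-Tu-8902, and none passed both limits, an adjusted p below 0.01 and a change of 1.5-fold or more (edgeR's quasi-likelihood test, Benjamini-Hochberg adjustment over all genes), against 16.3% of all 14949 tested genes. With the same test and no fold limit, 7 of the 10 passed, against 38.1% of all genes, 5 lower and 2 higher. GART, PAICS, ADSL, CAD and ASL fell, and ASS1 and ADSS rose. The median log2 fold change of the 10 was -0.21, where that of all tested genes was 0.0014. At an unadjusted p below 0.05, 8 of the 10 passed, against 56.6% of all genes. For 8 of the 10 the 3 dox-treated libraries did not overlap the 3 untreated ones in normalized counts, as held for 58.1% of all tested genes. A normalized count is a count scaled to the mean effective size of the 12 libraries, and in bulk RNA fewer cells that express a gene and less RNA per cell cannot be told apart.

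**Figure D1:**
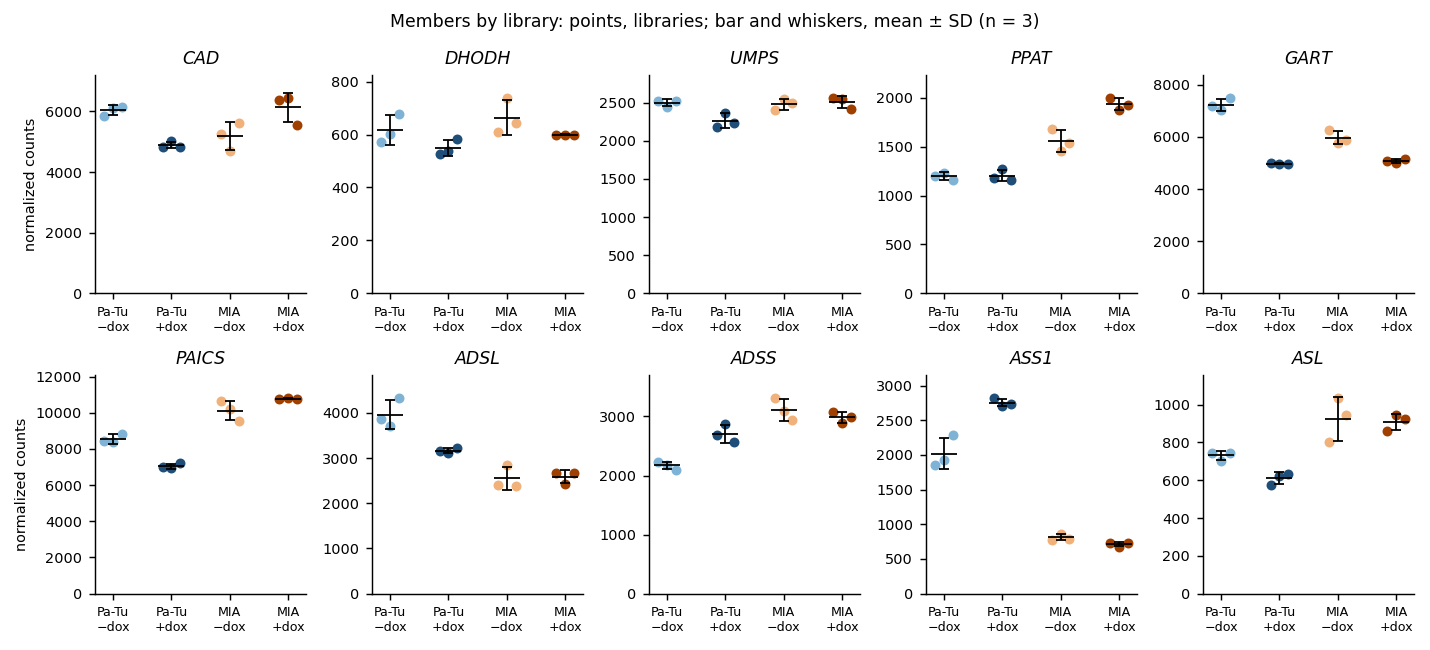
Normalized counts of each of the 10 genes (vertical axis, starting at 0) in the 4 groups, untreated (−dox) and dox-treated (+dox) Pa-Tu-8902 and MIA PaCa-2. Points are libraries, the bar is the mean and the whiskers are the SD of 3 libraries. GART fell from about 7245 to 4980 in Pa-Tu-8902, ASS1 rose there from about 2020 to 2755, and ASS1 was lowest in MIA PaCa-2.

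Among the purine enzymes, GART had the largest log2 fold change of normalized counts in this line; in TPM it and ADSS were level, at -0.38 and 0.38 with limma. Its untreated libraries held 7192, 7046 and 7497 normalized counts and its dox-treated libraries 5016, 4958 and 4966. The groups stood clear of each other, and the log2 fold change was -0.54 (standard error 0.04, edgeR adjusted p = 3.88e-06), a fall of 31.3% in the means with its 95% interval of -0.64 to -0.44 reaching past the 1.5-fold limit. PAICS, the aspartate-adding step that follows, was at 8431, 8372 and 8843 without dox and at 6986, 6955 and 7209 with it. All 3 dox-treated libraries were again below the untreated ones, at a log2 fold change of -0.28 (standard error 0.04, edgeR adjusted p = 0.000422). ADSL, which releases fumarate after that step, was at 3855, 3710 and 4322 normalized counts without dox and at 3155, 3108 and 3214 with it, again with no overlap, and the log2 fold change was -0.32 (standard error 0.06, edgeR adjusted p = 0.00089).

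PPAT, which opens the purine route and neighbours PAICS, did not pass in Pa-Tu-8902. It was at 1198, 1235 and 1156 normalized counts without dox and at 1180, 1270 and 1163 with it. The groups overlapped, with a log2 fold change of 0.01 and a 95% interval of -0.12 to 0.14. ADSS, the aspartate-using enzyme on the way from IMP to AMP, went the other way from the earlier steps. Its counts of 2230, 2183 and 2099 in untreated libraries lay below those of 2687, 2866 and 2560 in dox-treated libraries, and the log2 fold change was 0.32 (standard error 0.06, edgeR adjusted p = 0.000765).

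Of the pyrimidine enzymes CAD fell and the other two did not pass the test. CAD, the multienzyme protein that starts the route, was at 5843, 6105 and 6152 normalized counts in untreated and at 4835, 5023 and 4835 in dox-treated libraries. The groups did not overlap, and the log2 fold change was -0.30 (standard error 0.05, edgeR adjusted p = 0.000269). UMPS, the enzyme of the last steps, had a log2 fold change of -0.14 (edgeR adjusted p = 0.0364) and no overlap between groups, at 2444 to 2525 counts without dox and 2181 to 2371 with it. DHODH, the mitochondrial step, was at 571 to 678 and 525 to 583 counts, which overlapped, at a log2 fold change of -0.17 (95% interval -0.35 to 0.01).

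The urea cycle pair split. ASS1 had 1851, 1927 and 2280 normalized counts in untreated and 2816, 2710 and 2739 in dox-treated Pa-Tu-8902. Every dox-treated library was above every untreated one, and the means rose by 36.4% (log2 fold change 0.45, standard error 0.07, edgeR adjusted p = 0.000373). Per length the rise was larger, from 63.7 ± 5.5 to 97.8 ± 6.28 TPM (SD, n = 3 each), and the effective length that RSEM assigned, by which TPM divides, had medians of 1245 bases without and 1195 bases with dox. ASS1 was past the fold limit as well when log2(TPM + 1) was tested with limma, at a log2 fold change of 0.61. ASL, which acts next, fell (731 ± 24.4 normalized counts without and 611 ± 31.3 with dox, SD, n = 3 each; log2 fold change -0.26, edgeR adjusted p = 0.00781), and it no longer passed when any 1 of the 6 libraries was left out (edgeR adjusted p from 0.0149 to 0.0371). On log2(TPM + 1) with limma 4 members passed without the fold limit (PAICS, ADSL, ADSS and ASS1), while GART was at -0.38 (limma adjusted p = 0.0125) and CAD at -0.19 (limma adjusted p = 0.0404). Without untreated replicate 3, ASL was the one call of the 7 that was lost, with ASS1 at 0.54, GART at -0.52 and ADSL at -0.26.

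In MIA PaCa-2 none of the 10 passed both limits with dox, where 12% of 14589 tested genes did, and 2 passed without the fold limit, where 27.2% of all genes did. PPAT rose and GART fell. The median log2 fold change of the 10 was 0.00, near the -0.0089 of all tested genes. At an unadjusted p below 0.05, 4 of the 10 passed, against 49.6% of all genes. The groups did not overlap for 5 of the 10, as for 52.8% of all tested genes.

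PPAT was at 1684, 1459 and 1537 normalized counts in untreated and at 1997, 1879 and 1925 in dox-treated MIA PaCa-2. All treated libraries were above the untreated ones (log2 fold change 0.31, standard error 0.07, edgeR adjusted p = 0.00391). GART was at 6258, 5786 and 5888 without dox and at 5093, 5001 and 5165 with it, again without overlap (log2 fold change -0.23, standard error 0.06, edgeR adjusted p = 0.00836). Neither call was firm. PPAT was lost when untreated replicate 3 or any one of the dox-treated replicates 1, 2 or 3 was left out (edgeR adjusted p up to 0.0304), and GART when any library but untreated replicate 2 was (up to 0.0424). On log2(TPM + 1), GART had a log2 fold change of -0.06 and overlapping groups, at 86.2 to 120 TPM without and 90 to 109 TPM with dox.

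The other members did not pass in this line. CAD was at 5258, 4696 and 5613 normalized counts in untreated and at 6380, 6443 and 5566 in dox-treated libraries. The lowest treated library lay within the untreated range, and the log2 fold change was 0.24 (95% interval 0.07 to 0.42, edgeR adjusted p = 0.0315). PAICS, at 9537 to 10621 and 10753 to 10798 counts, did not overlap, but its difference was small (0.09, 95% interval -0.04 to 0.23). ASS1 was at 780 to 860 counts without and 678 to 736 with dox, a log2 fold change of -0.18 (edgeR adjusted p = 0.079). DHODH, UMPS, ADSL, ADSS and ASL had log2 fold changes from -0.14 to 0.03, and their 95% intervals lay within -0.33 to 0.20. Without untreated replicate 2, PPAT was at 0.26 and GART at -0.26 on the log2 scale, both still with an adjusted p below 0.01, and CAD was at 0.17.

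The dox change differed between the lines for 1 member past both limits and for 5 without the fold limit, in the interaction contrast of an edgeR fit of all 12 libraries. Among all 16544 genes tested, 10.4% and 16.9% passed. ASS1 passed both, with a difference of 0.63 (Pa-Tu-8902 change minus MIA PaCa-2 change on the log2 scale, standard error 0.11, edgeR adjusted p = 0.00029). CAD had a difference of -0.54 (standard error 0.10, edgeR adjusted p = 0.000541) and PAICS one of -0.37 (standard error 0.08, edgeR adjusted p = 0.00184). ADSS was at 0.38 (standard error 0.09, edgeR adjusted p = 0.00329), and at an adjusted p of 0.0101 by edgeR without untreated MIA PaCa-2 replicate 1. GART, which fell in both lines, fell by 0.31 more on the log2 scale in Pa-Tu-8902 (edgeR adjusted p = 0.00503), but this difference did not pass when any library but untreated MIA PaCa-2 replicate 1 was left out. With untreated Pa-Tu-8902 replicate 1 left out, ASS1 no longer passed the fold limit in this contrast, at 0.58. CAD came past it without untreated or without dox-treated MIA PaCa-2 replicate 3. Without untreated MIA PaCa-2 replicate 2 the differences were 0.60 for ASS1 and -0.46 for CAD, and without untreated Pa-Tu-8902 replicate 3 they were 0.72 and -0.53.

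For the remaining members the difference itself did not pass. PPAT was at -0.30 (edgeR adjusted p = 0.0224) and ADSL at -0.35 (edgeR adjusted p = 0.0203). PPAT passed without the fold limit when untreated MIA PaCa-2 replicate 1 was left out (-0.36, edgeR adjusted p = 0.00769), and ADSL when untreated MIA PaCa-2 replicate 2 was (-0.42, edgeR adjusted p = 0.0018). ADSL also passed without the fold limit in DESeq2 (-0.34, DESeq2 adjusted p = 0.00851) and in all 3 limma fits of TPM (-0.33 in each), where CAD, PAICS, ADSS and GART did not. ASL and UMPS were at -0.24 and -0.16. For DHODH the difference was -0.02 with a 95% interval of -0.28 to 0.24. With effective lengths as offsets in the fit the difference for DHODH was 0.18.

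**Figure D2:**
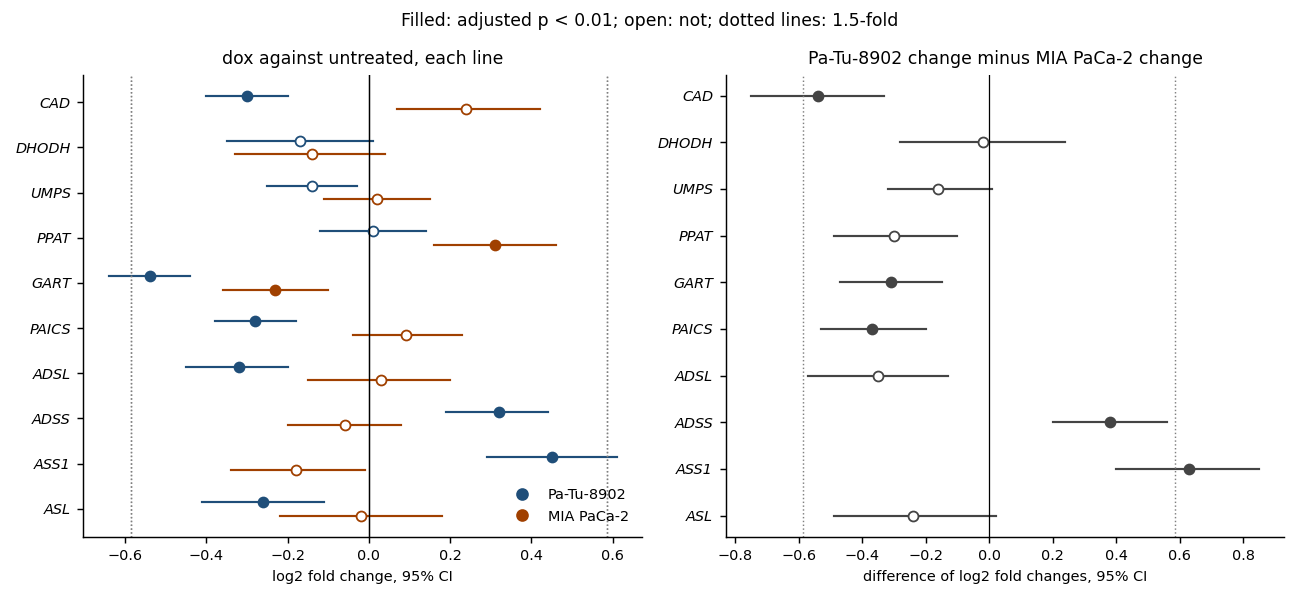
Left, log2 fold change with dox in each line; right, the difference of these changes (Pa-Tu-8902 minus MIA PaCa-2). Lines are 95% confidence intervals from edgeR, filled points have an adjusted p below 0.01 and dotted lines mark a 1.5-fold change. In Pa-Tu-8902 GART is farthest to the left at -0.54 and ASS1 farthest to the right at 0.45, and in MIA PaCa-2 all 10 lie between -0.23 and 0.31.

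In untreated cells all 10 members were present in both lines, and ASS1 differed most. Between the lines 58.1% of 15608 tested genes passed both limits and 72.9% passed without the fold limit, so a difference in this comparison is common. Of the 10 members 2 passed both limits, ASS1 and ADSL, both higher in Pa-Tu-8902, and 7 passed without the fold limit, 3 higher and 4 lower. The median log2 fold change of the 10 was -0.06, where that of all genes was -0.0285. The untreated libraries of this comparison are those that the dox comparisons also used.

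ASS1 stood at 1851, 1927 and 2280 normalized counts in untreated Pa-Tu-8902 and at 780, 860 and 791 in untreated MIA PaCa-2, 2.49-fold higher in the former (log2 fold change 1.30, standard error 0.08, edgeR adjusted p = 8.11e-09). The order was the same in TPM, at 58 to 69 against 26.4 to 27.8. ADSL was at 3855, 3710 and 4322 normalized counts against 2409, 2848 and 2386 (log2 fold change 0.62, standard error 0.08, edgeR adjusted p = 1.01e-05). Its lead lies close to the fold limit. It did not pass that limit with effective lengths as offsets (0.55), or without untreated MIA PaCa-2 replicate 1 (0.57) or replicate 3 (0.56).

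GART was also higher in Pa-Tu-8902 (log2 fold change 0.26, edgeR adjusted p = 0.00304), and PAICS (-0.26), ASL (-0.35), PPAT (-0.40) and ADSS (-0.54) were lower (edgeR adjusted p from 1.68e-05 to 0.00338). ADSS was at 2099 to 2230 normalized counts in Pa-Tu-8902 and at 2943 to 3307 in MIA PaCa-2, with no overlap, and it came past the fold limit when untreated MIA PaCa-2 replicate 2 or 3 was left out (-0.59 in each case). With any one untreated Pa-Tu-8902 library left out, PAICS (up to an edgeR adjusted p of 0.132) and ASL (up to 0.0771) no longer passed, nor did ASL and GART without untreated MIA PaCa-2 replicate 3 or PPAT without untreated Pa-Tu-8902 replicate 1. CAD (0.20, 95% interval 0.03 to 0.37), DHODH (-0.12, -0.33 to 0.08) and UMPS (-0.01, -0.15 to 0.13) did not pass. Without untreated MIA PaCa-2 replicate 2, ASS1 was at 1.29, ADSL at 0.66 and CAD at 0.08, and without untreated Pa-Tu-8902 replicate 3 they were at 1.26, 0.61 and 0.24. The 3 pyrimidine enzymes gave no call between the untreated lines. DHODH and UMPS overlapped between the lines, and CAD did not, at 5843 to 6152 against 4696 to 5613 normalized counts.

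**Figure D3:**
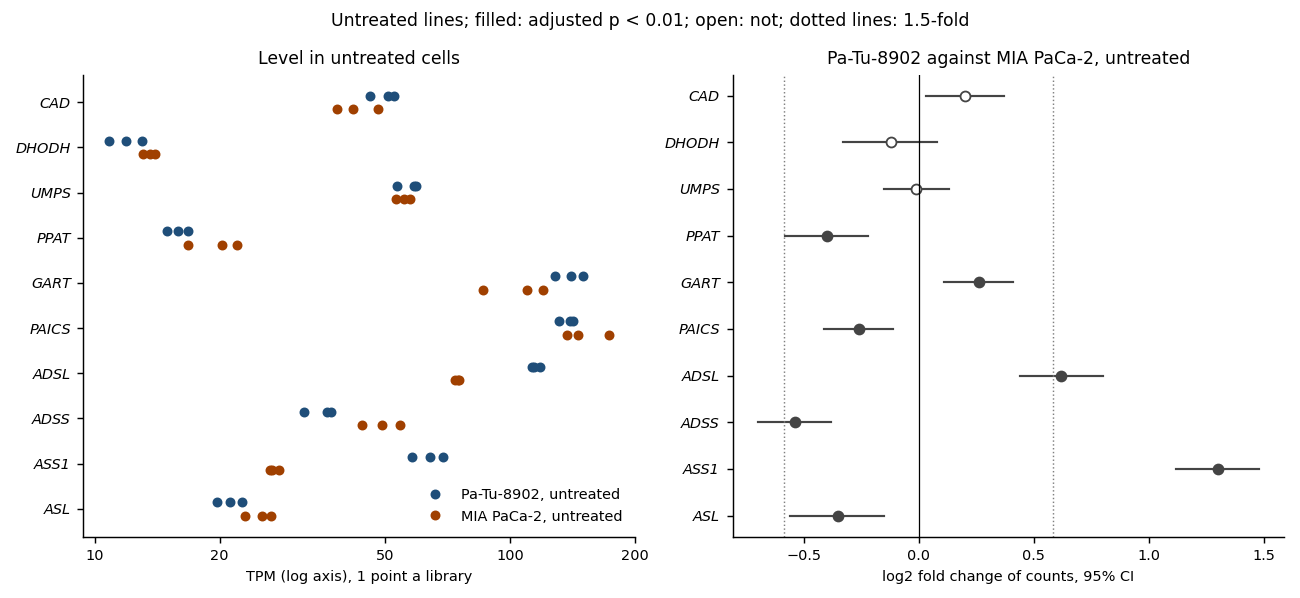
Left, level of each gene in the 3 untreated libraries of each line, in TPM on a log axis; right, log2 fold change of untreated Pa-Tu-8902 against MIA PaCa-2 from edgeR with its 95% confidence interval, filled where the adjusted p is below 0.01, with dotted lines at 1.5-fold. ASS1 is farthest to the right at 1.30, and the levels run from about 11 TPM for DHODH to 173 TPM for PAICS.

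Per length, by gene TPM over all transcripts of a gene, PAICS and GART were the most abundant members and DHODH the least in each of the 4 groups. In untreated Pa-Tu-8902 the order of mean TPM was GART (139 ± 10.9), PAICS (137 ± 5.74), ADSL (115 ± 2.93), ASS1 (63.7 ± 5.5), UMPS (57.2 ± 3.2), CAD (49.8 ± 3.43), ADSS (35.1 ± 2.77), ASL (21.1 ± 1.46), PPAT (15.9 ± 0.945) and DHODH (11.9 ± 1.07), each with the SD of 3 libraries. Neighbours in this order whose libraries overlapped were GART with PAICS and ASS1 with UMPS. With dox, ASS1 moved up from the fourth to the third place, at 97.8 ± 6.28 TPM, where it overlapped GART (107 ± 12) and ADSL (96.1 ± 3.27). In untreated MIA PaCa-2 it was the seventh, at 27 ± 0.731 TPM, overlapping ASL (24.9 ± 1.82), and with dox the ninth, at 24 ± 1.47 TPM, overlapping PPAT (24.5 ± 1.76). The 10 genes together took 626 to 662 TPM in untreated and 587 to 622 TPM in dox-treated Pa-Tu-8902, which did not overlap, and 516 to 605 and 551 to 604 TPM in MIA PaCa-2, which did. By transcripts annotated as protein coding alone, PAICS stayed highest, but UMPS lay below DHODH in each group. In dox-treated Pa-Tu-8902 GART then held 69.7 to 76.5 TPM, below ADSL (89.8 to 97.1) and ASS1 (78.1 to 91). It was also below ADSL in untreated Pa-Tu-8902, and overlapped it in dox-treated MIA PaCa-2. In untreated MIA PaCa-2 GART was above ADSL (72.5 to 89.2 against 69.5 to 71.7 TPM).

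Other genes of the same routes were described by lists written from general knowledge, with the members left out. In Pa-Tu-8902, 6 of the 10 other purine synthesis genes fell and 1 rose with dox at an adjusted p below 0.01 and no fold limit. By this rule 38.1% of all tested genes passed there. The median log2 fold change of these 10 genes was -0.24. PFAS, the step between those of GART, was at 1942 ± 82.1 and 1676 ± 66.7 normalized counts (log2 fold change -0.21), and ATIC, which completes IMP, at 7785 ± 507 and 6293 ± 575 (-0.30; SD, n = 3 each), both among those that fell. The one that rose was ADSSL1, the muscle form of ADSS, with a mean of 81.4 normalized counts and named after its values were seen (0.77). In MIA PaCa-2 1 of these 10 rose and 2 fell, with a median of 0.05, where 27.2% of all tested genes passed by the same rule. There PFAS rose (4252 ± 387 normalized counts without and 5501 ± 327 with dox, SD, n = 3 each; log2 fold change 0.37), ATIC was at 0.08, and PRPS2, a phosphoribosyl pyrophosphate synthetase, fell by 0.60, the only one past both limits. The difference between the lines passed without the fold limit for PFAS (-0.58) and ATIC (-0.38).

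The 5 other pyrimidine synthesis genes gave 2 falls in Pa-Tu-8902 and 1 rise in MIA PaCa-2 without the fold limit. By this rule, used for the list counts of this paragraph, 38.1% and 27.2% of all tested genes passed in these lines. CTPS1, which makes CTP from UTP, and NME1, a nucleoside diphosphate kinase named after its values were seen (-0.25), were the falls. CTPS1 was on opposite sides, at -0.46 and 0.24, and its difference of -0.70 passed both limits. In the deoxynucleotide list 3 of 9 genes fell in Pa-Tu-8902, and 3 fell and 1 rose in MIA PaCa-2. TYMS, the thymidylate synthase, passed both limits in both lines, at -0.70 and -0.60. Of 21 genes active in S phase, 11 fell in Pa-Tu-8902 (median log2 fold change -0.20), and 6 fell, RFC4 most at -0.73, and 2 rose in MIA PaCa-2 (median -0.02); whether this bears on the enzymes was not tested. Of 21 salvage genes 8 fell and 1 rose in Pa-Tu-8902, and of the 20 tested in MIA PaCa-2 2 fell and 5 rose. CDA (-1.02) and UPP1 (-0.93) fell past both limits in Pa-Tu-8902, and UPP1 (-1.29) fell and ADA (1.13) rose in MIA PaCa-2. PNP, which splits purine nucleosides, differed between the lines by -0.89.

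Around the urea cycle pair, CPS1, the mitochondrial carbamoyl phosphate synthetase, was at 2.18 to 3.67 normalized counts in untreated Pa-Tu-8902, too low for testing there, and at 638 to 809 in untreated MIA PaCa-2. Of the 15 genes of the urea cycle and arginine list beside ASS1 and ASL, 9 were tested in Pa-Tu-8902 (1 rose, 3 fell) and 10 in MIA PaCa-2 (2 rose, none fell). These counts and those of the next list are without the fold limit, where 38.1% and 27.2% of all tested genes passed in these lines. NAGS, whose product activates CPS1, fell in Pa-Tu-8902 by 2.15 on the log2 scale, and SLC7A1, an arginine carrier, had opposite changes of -0.34 and 0.46, with a difference of -0.80 past both limits. In the list of aspartate supply and use, with GOT1, 5 genes rose and 2 fell in Pa-Tu-8902 and 2 rose and 5 fell in MIA PaCa-2. ASNS, which makes asparagine from aspartate, fell by 1.11 in Pa-Tu-8902 and by 0.49 in MIA PaCa-2, without reaching the fold limit in the latter. SLC1A3, an aspartate and glutamate carrier, rose by 1.22 in Pa-Tu-8902 and was too low for testing in MIA PaCa-2. ASRGL1, an asparaginase, was at -0.07 and -0.73. Of the regulators, MYC was at 0.14 in Pa-Tu-8902 (edgeR adjusted p = 0.0726) and rose past both limits in MIA PaCa-2 (0.59), and ATF4 fell by 0.41 in Pa-Tu-8902 and was at -0.04 in MIA PaCa-2. Each had a difference between the lines without the fold limit, at -0.45 and -0.37.

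**Figure D4:**
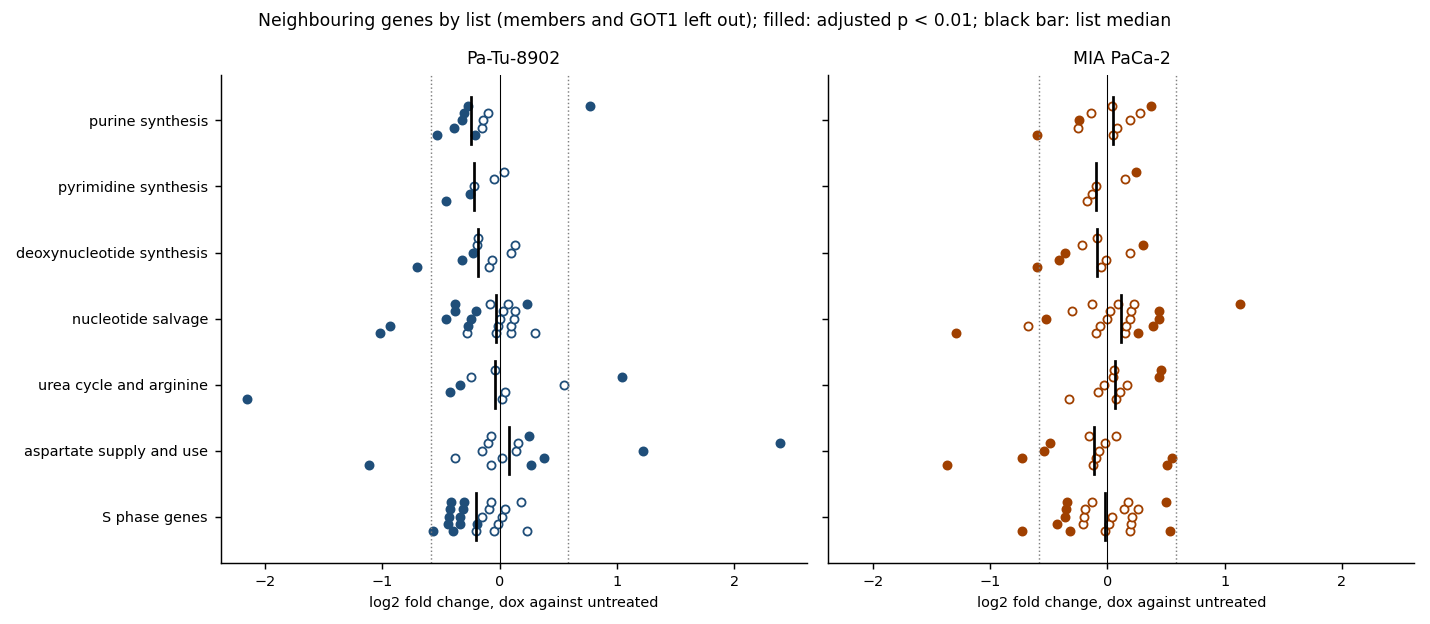
Log2 fold change with dox in each line (horizontal axis) of the genes of 7 lists, with the 10 enzymes and GOT1 left out. Each point is a gene, filled where the edgeR adjusted p is below 0.01, the black bar is the list's median and dotted lines mark a 1.5-fold change. The purine synthesis median is at -0.24 for Pa-Tu-8902 and at 0.05 for MIA PaCa-2.

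Between the untreated lines 58.1% of all tested genes passed both limits. Of the 10 other purine genes, 6 were lower and 1 higher in Pa-Tu-8902 past both limits, with a median log2 fold change of -0.88. IMPDH1, the first enzyme towards GMP, was at -2.43, ADSSL1 at -1.73, PRPS2 at -1.42 and PFAS at -1.15, while ATIC was higher by 0.80. None of the 5 other pyrimidine genes passed both limits. Without the fold limit 72.9% of all tested genes passed. By that rule 1 of 9 deoxynucleotide genes was higher and 3 were lower in Pa-Tu-8902. So were 11 and 6 of 21 salvage genes and 4 and 3 of 10 tested urea cycle genes. The counts were 5 and 3 of 14 tested genes of aspartate supply and 9 and 6 of 21 S phase genes.

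The authors' isoform tables split each gene's transcripts by RSEM's model, so the shares below are a description without a test. In PAICS the 2 leading isoforms are both coding. PAICS-201, with 425 coding residues in the newer annotation, took 63.3%, 68.2% and 64.2% of the PAICS TPM in untreated and 77.4%, 75.7% and 80.4% in dox-treated MIA PaCa-2, and PAICS-204, with 413, took 27.3%, 24.2% and 23.6% and then 15.1%, 15.7% and 11.4%. The groups did not overlap for either isoform, though these are shares of the same total and not separate observations. Nor did they overlap in this line for DHODH-201 (69.9% to 72.7% and 77.6% to 79.7%) or ADSS-201 (97.1% to 98.6% and 94.4% to 96.1%). In Pa-Tu-8902 PAICS-201 was at 55.9% to 61.8% and 59.2% to 70.4%, which overlapped. Gene-level PAICS TPM overlapped in MIA PaCa-2, at 137 to 173 and 149 to 162, while PAICS-201 alone was at 93.6 to 110 TPM without and 120 to 123 TPM with dox.

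GART makes a long protein with 3 activities and a short one with the first of them. The long form, GART-203 (1010 residues), took 46.7% to 63.2% of the GART TPM over the 12 libraries and the short form, GART-201 (433 residues), 13.4% to 19.1%. In Pa-Tu-8902 GART-203 was at 72.7 to 76 TPM without and 51.4 to 55.4 TPM with dox, and GART-201 at 23.4 to 25.8 and 16.6 to 17.5 TPM, so both were lower in every dox-treated library. GART-218, a short noncoding transcript of 457 bases, took 13.3% to 33.7% of the TPM but 1.13% to 4.13% of the counts, and it varied between replicates of 1 group (16.7% to 33.7% of the TPM in dox-treated Pa-Tu-8902). In ASS1 the coding ASS1-201 took 70.1% to 94.9%. Its own level was 53.8 to 62.2 TPM in untreated and 70.1 to 81.6 TPM in dox-treated Pa-Tu-8902, and 21.3 to 22.6 and 19.8 to 20.6 TPM in MIA PaCa-2, the same directions as for the gene. ADSS was nearly one transcript, with ADSS-201 at 94.4% to 98.7%, and PPAT-201 took 80.5% to 93.8%.

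UMPS stood out in that its transcripts annotated as protein coding took 4.31% to 12.7% of its TPM in the 12 libraries. The rest was assigned to transcripts typed as targets of nonsense-mediated decay or as processed transcripts, led by UMPS-203 at 23.2% to 41.7%. For the other 9 members the coding share was 63.3% or higher. The UMPS level of the gene tables therefore sums mostly isoforms not typed as coding, and the split depends on RSEM's model.

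**Figure D5:**
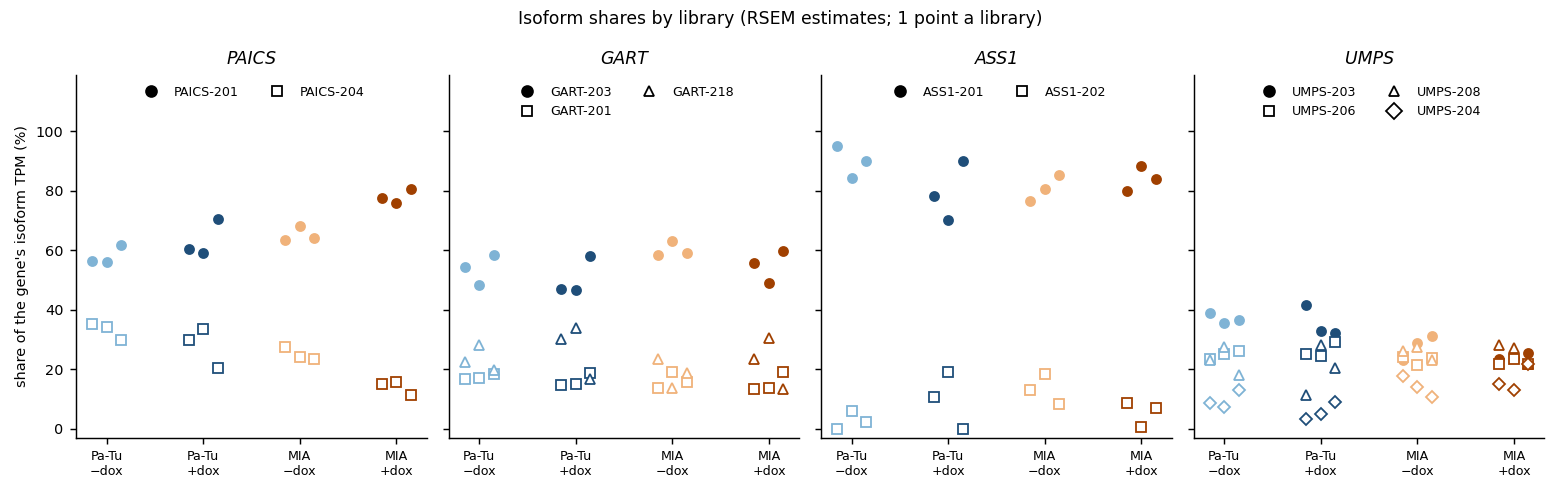
Share of each gene's isoform TPM (percent) taken by the leading isoforms of PAICS, GART, ASS1 and UMPS in each of the 12 libraries, grouped by line and treatment. PAICS-201 lies at 63.3% to 68.2% in untreated and 75.7% to 80.4% in dox-treated MIA PaCa-2, with PAICS-204 below it.

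Processed copies of these genes took few reads. The 11 ASS1 pseudogenes in the tables held at most 13 counts together, or 1.57% of the counts of ASS1 and its copies, and those of PAICS and PPAT at most 0.145% and 0.128%. In the newer annotation 11.1% of the exon bases of ADSL and 9.34% of those of ASL are shared with another gene model on the same strand, and counts of these 2 genes could be divided differently there. RNA levels give neither the amount nor the activity of an enzyme.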

How the data were processed

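RNA of 12 libraries (4 groups of 3, taken from the labels) was sequenced from directional poly(A) libraries. The authors trimmed reads with Trimmomatic 0.39 and estimated genes and isoforms with RSEM 1.3.1 on STAR 2.5.2a (GRCh38, GENCODE annotation). The deposited expected counts are estimated reads per gene (5.34% of values are not whole), and the deposited TPM values divide them by each library's effective length. Strand use in counting is not given in the sources used here, and the deposited FPKM tables were not used. Expected counts were rounded, kept at 10 or more in 3 or more libraries, TMM normalized and tested with edgeR 4.0.16 (R 4.3.3), with Benjamini-Hochberg adjustment over all tested genes. Checks on simulated data preceded each fit. DESeq2 1.42.0, limma 3.58.1 on log2(TPM + 1), other filters and leaving out each library were alternatives, and counts without a fold limit under them were added after seeing the data. The 10 members and all lists were chosen with earlier results of these data known. Members, GOT1, PFAS, ATIC, MYC, ATF4 and line markers were named whatever their values, and in each list up to 4 genes past both limits with at least 100 normalized counts on average. Positions came from a later GENCODE annotation and promoter windows from RefSeq, both on GRCh38. The comparisons share their untreated libraries.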

Additional observations from a re-analysis of the deposited data

Results flagged for a closer look

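The change with dox differed between the lines for 5 of the enzymes, by the interaction contrast of edgeR over 12 libraries. The rule was an adjusted p below 0.01 with no fold limit, by which 16.9% of all 16544 tested genes passed. Only ASS1 also passed the fold limit. The differences were 0.63 for ASS1, 0.38 for ADSS, -0.54 for CAD, -0.37 for PAICS and -0.31 for GART. Each is the Pa-Tu-8902 change minus the MIA PaCa-2 change on the log2 scale. ASS1 and ADSS rose in Pa-Tu-8902 and had negative values in MIA PaCa-2 that did not pass the test (-0.18 and -0.06), and CAD and PAICS fell in Pa-Tu-8902 and had positive values there that did not pass it (0.24 and 0.09). GART fell in both lines, and its difference did not pass when any library but untreated MIA PaCa-2 replicate 1 was left out. In the limma fits of TPM the difference did not pass for ADSS, CAD, PAICS or GART.

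Among the named genes of other lists the difference was -0.58 for PFAS, -0.38 for ATIC, -0.70 for CTPS1, -0.89 for PNP, -0.80 for SLC7A1, -0.62 for ASNS, 0.66 for ASRGL1, -0.45 for MYC and -0.37 for ATF4. Dixon's test of a single gene's values was not run on these groups of 3 libraries.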

How the results depend on the processing

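With 3 libraries a group and no dox-only control, small changes rest on single libraries and on the unit. Of members past both limits, limma on log2(TPM + 1), log2(TPM + 0.1) and log2(TPM + 1) unfiltered gave 1 (ASS1) instead of 0 in Pa-Tu-8902. Dropping the fold limit gave 7 in Pa-Tu-8902, 2 with dox in MIA PaCa-2, 7 between the untreated lines and 5 for the difference. Effective lengths gave 1 between the untreated lines. Leaving out each library gave 1 to 3 between the untreated lines (1 without untreated MIA PaCa-2 replicate 1) and 0 to 2 for the difference. At an adjusted p below 0.01 with no fold limit, the 3 limma fits gave 4, 4 and 2 members in Pa-Tu-8902, where edgeR gave 7. They gave 0, 0 and 0 for MIA PaCa-2 (2), 3, 3 and 3 between the untreated lines (7) and 2, 2 and 2 for the difference (5). In MIA PaCa-2 DESeq2 size factors gave 1 and effective lengths 0, and for the difference effective lengths gave 2. Leaving out each library gave 6 in Pa-Tu-8902, 0 to 2 for the MIA PaCa-2 line, 4 to 7 between the untreated lines (4 without untreated Pa-Tu-8902 replicate 1) and 4 to 5 for the difference. The counts with no fold limit under these settings were added after seeing the data, and the cause of the changes was not tested.

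Values near 0 changed sign. With dox in Pa-Tu-8902, PPAT was at -0.05 with effective lengths and between -0.02 and 0.05 with each library left out. In MIA PaCa-2, effective lengths gave PAICS -0.02 and ASL 0.01, and the limma fits gave ASL 0.07, 0.08 and 0.07, ADSS 0.02, 0.03 and 0.02, and ATF4 0.02 in all 3. There, leaving out each library gave ASL between -0.12 and 0.06, ADSL between -0.03 and 0.11 and ATF4 between -0.08 and 0.02. Between the untreated lines UMPS was at 0.01 with DESeq2, its size factors and the fit of 12 libraries, at 0.05 with limma and between -0.04 and 0.10 with each library left out, where DHODH lay between -0.18 and 0.02. For the difference DHODH was at 0.18 with effective lengths, at 0.17, 0.18 and 0.17 with limma and between -0.09 and 0.05 with each library left out, and GOT1 was at -0.18 with limma on log2(TPM + 1), filtered or not.

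Same-numbered libraries did not deviate together (correlations from -0.121 to 0.0987), so the numbers were not taken as pairs. A replicate block gave 0, 0, 2 and 1 members past both limits, and without the fold limit 6 in place of 7 in Pa-Tu-8902 (ASL lost), 1 in place of 2 for MIA PaCa-2 (GART lost), 5 in place of 7 between the untreated lines (PAICS and GART lost) and 4 in place of 5 for the difference (GART lost).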
